A study of Homo sapiens and Mus musculus with 24 samples.

Results

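Enzalutamide was compared with its vehicle DMSO in LNCaP cells that grew beside fibroblasts which the labels call CRPCCAFs, a name they do not spell out. The comparison rests on 4 of the 24 libraries of the series, 2 with DMSO and 2 with enzalutamide at 1 µM, all taken on day 7 and described as biological replicates. LNCaP (LNCap in the labels) is an established line of human prostate cancer epithelial cells that respond to androgen, and the labels give its genotype as WT in every group. A further 8 LNCaP libraries, with DMSO or 1 µM enzalutamide on day 7, came from cells without fibroblasts, called LNCaP alone here, and from cells beside fibroblasts labelled CCAFs. The other 12 libraries are mouse fibroblasts and were not used. The labels name no mouse, donor or passage for the fibroblasts of the cocultures, although the mouse fibroblasts of the series came from PtenPC-/-; Trp53PC-/- mice. The sample titles tag the CCAF cocultures p53 and the CRPCCAF cocultures p53_ca. The table gives RPKM, which scales reads for the length of the gene and the size of the library. Of its 44591 names, 27 were calendar dates and were removed, and the 16042 genes at 1 RPKM or more in at least 2 of the 12 LNCaP libraries were tested.

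Androgens act on prostate cells through androgen response elements in DNA, where the pioneer factor FOXA1 and HOXB13 also bind, and switch on secretory genes of the prostate. Enzalutamide is an antiandrogen that blocks this signal. Genes that androgen holds down, among them those for enzymes that inactivate androgens, rise when the signal is blocked. In castration-resistant disease, tumours grow although androgen is low or its action is blocked, and fibroblasts of the tumour are studied as one source of signals to the cancer cells.

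All 12 libraries held 17850431 to 22187880 reads, and the 4 with CRPCCAFs held 18068160 and 18517459 reads with DMSO and 17850431 and 19609809 reads with enzalutamide. The 2 libraries of each group differed by more than sampling noise, with a chi-square of 1.63 to 4.39 per gene. The highest value, 4.39, was that of the DMSO pair with CRPCCAFs, and the enzalutamide pair with CRPCCAFs had 2.03. The fit pools the spread over all 6 groups, so it can understate the spread of the noisier DMSO pair. Nothing in the labels says whether the replicates were separate thaws or dishes, so each p measures the spread between these libraries only. Epithelial markers were high in all 4 libraries, with KRT8 at 254, 282, 348 and 354 RPKM and CDH1 at 150, 145, 182 and 179 RPKM. In bulk RNA, fewer cells of a type and less RNA per cell cannot be told apart.

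Shares of promoters with each match are given with the groups below. The promoter windows printed here and below are examples, picked among called genes of a group because they hold the match. They come from RefSeq on GRCh38.p14, whereas the submitters' notes name hg19, and each window is the 250 bases before the gene's start on the gene's own strand, 5′ to 3′, with the match in capitals. KLK3 (chr19:50854665-50854914, plus strand) is an example from the genes that androgen activates, and its capitals are the half-site AGAACA of an androgen response element. ORC6 (chr16:46689409-46689658, plus strand), of the origin recognition complex, is an example from replication genes, and its capitals are the E2F letters TTTNNCGC, here on the opposite strand. MKI67 (chr10:128126424-128126673, minus strand), the proliferation antigen Ki-67, is an example from mitotic genes and holds the letters TTTGAA of the cell cycle homology region (CHR) at 2 places.
KLK3: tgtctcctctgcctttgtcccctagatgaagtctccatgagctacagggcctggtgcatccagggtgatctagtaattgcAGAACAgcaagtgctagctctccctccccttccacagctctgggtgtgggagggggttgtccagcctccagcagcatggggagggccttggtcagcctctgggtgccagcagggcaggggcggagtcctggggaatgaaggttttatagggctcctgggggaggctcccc
ORC6: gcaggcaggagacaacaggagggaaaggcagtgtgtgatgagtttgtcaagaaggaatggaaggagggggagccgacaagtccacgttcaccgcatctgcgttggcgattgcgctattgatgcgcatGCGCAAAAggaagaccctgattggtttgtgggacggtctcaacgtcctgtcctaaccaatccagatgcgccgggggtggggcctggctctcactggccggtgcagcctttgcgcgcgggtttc
MKI67: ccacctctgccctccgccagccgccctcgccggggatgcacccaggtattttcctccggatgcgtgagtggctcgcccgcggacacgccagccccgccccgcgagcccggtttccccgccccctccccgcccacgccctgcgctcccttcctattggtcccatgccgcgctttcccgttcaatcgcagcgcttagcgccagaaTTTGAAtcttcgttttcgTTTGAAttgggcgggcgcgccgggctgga

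With CRPCCAFs present, enzalutamide lowered the secreted prostate proteases and the classical androgen targets, most of all KLK2 and ADAM7. KLK3, the gene of prostate-specific antigen, stood at 1945 and 2031 RPKM with DMSO and at 178 and 180 RPKM with enzalutamide, and KLK2, the related protease, at 127 and 133 against 4.5 and 4.2 RPKM. Over all genes, 8848 of 16042 (55.2%) passed the test, 4885 higher (30.5%) and 3963 lower (24.7%), so a single call is common here and the size of a change says more. At a log2 change of at least 1, 366 genes (2.28%) were higher and 606 (3.78%) lower.

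Of 10 kallikreins and other secreted prostate proteins, 7 were tested, and 6 fell and 1 rose, beside 24.7% and 30.5% of all genes. The log2 change, always of RPKM + 1, was -4.61 for KLK2 (SE 0.0702, adjusted p = 1.7e-10) and -3.47 for KLK3 (SE 0.0537, adjusted p = 1.7e-10). These 2 genes are close copies, so reads shared between them could be split either way. KLK15, another kallikrein, fell by 1.56, AZGP1, a zinc-binding secreted glycoprotein, by 1.52, MSMB, a seminal plasma protein, by 1.29 and KLK4 by 1.18 on the log2 scale. ACPP, prostatic acid phosphatase, went the other way, from 9.16 and 8.36 RPKM to 25.9 and 25.7 RPKM.

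Among 40 further androgen-activated targets, 37 were tested, and 33 fell and 3 rose, beside 24.7% and 30.5% of all genes. Their median log2 change was -1.32 beside 0.05 for all genes tested. ADAM7, a membrane protein of the ADAM family, had 34.3 and 31.1 RPKM with DMSO and 0.527 and 0.464 RPKM with enzalutamide, which is 66-fold lower. SLC45A3, the membrane protein prostein, fell from 131 and 134 to 20.7 and 20.5 RPKM. TMPRSS2, a membrane serine protease, fell less, from 282 and 283 to 73.1 and 74 RPKM. For each of these genes the 2 libraries of a group lay close together and far from those of the other group. FKBP5, a co-chaperone of steroid receptors, fell from 24.2 and 22.2 to 2.66 and 2.54 RPKM. KCNN2, a potassium channel, changed by -3.60 and CENPN, a centromere protein, by -3.13. STK39, a kinase of the SPS1 type whose promoter also holds the half-site, fell from 107 and 100 to 22.3 and 21.2 RPKM. The 3 that rose were ALDH1A3 (0.54), KLF9 (0.40) and TMEM140 (0.22), the last with no call when DMSO library 2 (0.16) or enzalutamide library 1 (0.19) was left out.

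The half-site AGAACA was found on either strand in 4 of the 27 androgen-activated targets with a promoter in the RefSeq table (14.8%), in 8.87% of 10383 tested genes with a promoter and in 14.9% of all 27305 promoters of that length, which is 300 bases with the first 50 of the gene. Among the tested kallikreins and secreted prostate proteins, the list of KLK3, it stood in 1 of 6 promoters (16.7%). So short a motif is common, and the windows hold no distant enhancer.

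**Figure D1:**
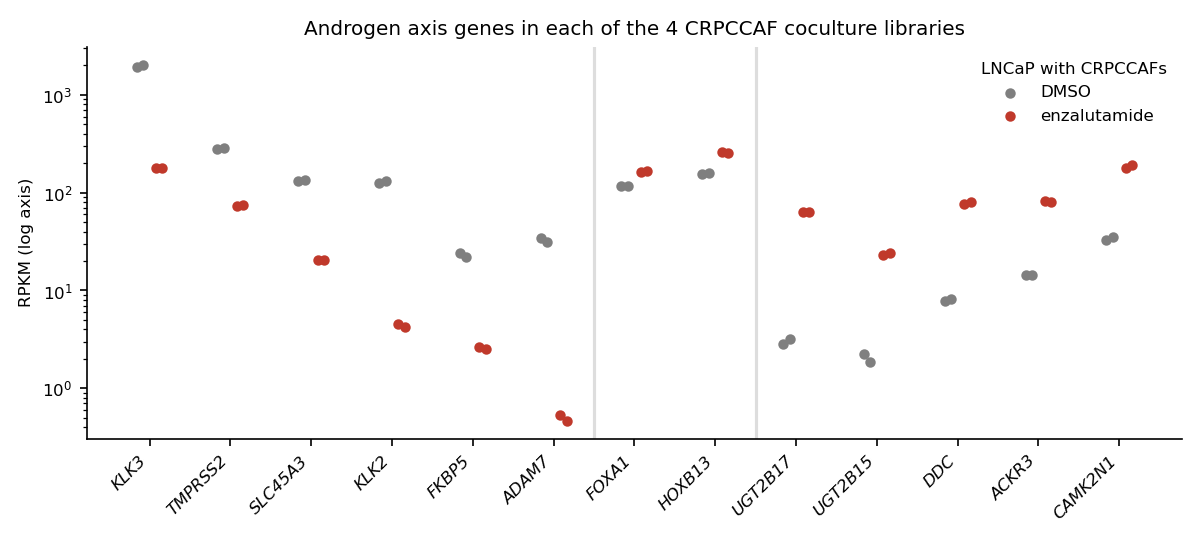
RPKM on a log axis of 13 genes in the 2 DMSO libraries (grey) and the 2 enzalutamide libraries (red) with CRPCCAFs, 1 point per library; activated targets are at the left, FOXA1 and HOXB13 in the middle and repressed genes at the right. The 2 points of a group nearly coincide for every gene, KLK3 keeps 178 and 180 RPKM with enzalutamide, and UGT2B17 goes from 2.82 and 3.19 to 63.8 and 64 RPKM.

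Genes known as androgen-repressed rose. Of 17, 14 were tested, and 11 rose and 2 fell, beside 30.5% and 24.7% of all genes, with a median of 1.81. UGT2B17, which conjugates androgens to glucuronic acid, went from 2.82 and 3.19 to 63.8 and 64 RPKM, and its near copy UGT2B15 from 2.25 and 1.84 to 23.2 and 23.9 RPKM. Reads of these 2 genes could be assigned to either. DDC, aromatic amino acid decarboxylase, rose from 7.73 and 8.15 to 77 and 80 RPKM. ACKR3, a chemokine scavenger receptor, rose from 14.3 and 14.3 to 81.5 and 80.6 RPKM. CAMK2N1, an inhibitor of calmodulin kinase, reached 180 and 190 RPKM from 32.6 and 35.6 RPKM. OPRK1, the kappa opioid receptor, rose 18.8-fold from 0.223 and 0.239 RPKM, a low level that the scale of log2(RPKM + 1) shows as 2.12. TMEFF2, a transmembrane protein with follistatin domains, fell instead, from 10.7 and 11.1 to 1.11 and 0.872 RPKM.

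Of 26 tested factors and coregulators of androgen signalling, 11 rose and 6 fell, beside 30.5% and 24.7% of all genes, with a median of 0.09. HOXB13 rose from 155 and 161 to 260 and 257 RPKM and FOXA1 from 118 and 117 to 164 and 168 RPKM. The nuclear receptor coactivators NCOA3 (0.99), NCOA2 (0.81) and NCOA1 (0.57) rose, whereas the ETS factors ETV1 (-1.27) and SPDEF (-0.89) and FKBP4 (-0.65), a co-chaperone of steroid receptors, fell.

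Androgen target genes were then compared with cells without CRPCCAFs. Tests of the difference between 2 enzalutamide changes found 590 genes (3.68%) more positive and 535 (3.33%) more negative with CRPCCAFs than in LNCaP alone, and 381 (2.38%) more positive and 653 (4.07%) more negative than with CCAFs. Both tests use the 4 CRPCCAF libraries, so they are not independent. The first total, 1125, fell to between 580 and 673 genes when either enzalutamide library with CRPCCAFs, or any 1 of the 4 libraries of LNCaP alone, was left out. The second total, 1034, fell to between 580 and 598 when enzalutamide library 1 with CRPCCAFs, either DMSO library with CCAFs or enzalutamide library 2 with CCAFs was left out.

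KLK3 kept more of its level with CRPCCAFs than in LNCaP alone, where it went from 1243 and 1145 to 55.6 and 61.5 RPKM, and less than with CCAFs, where it went from 1861 and 1849 to 444 and 454 RPKM. The difference between its changes was 0.86 (adjusted p = 0.0002) against LNCaP alone and -1.42 (adjusted p = 1e-05) against CCAFs. On the scale of log2(RPKM + 1), KLK2 did not differ detectably from LNCaP alone (-0.09, SE 0.0993, adjusted p = 0.68). It fell further than with CCAFs (-1.32, adjusted p = 7.2e-05). In LNCaP alone it went from 54.63 and 48.06 to 1.345 and 1.201 RPKM, a level where the added 1 understates the fall. Other targets went the other way from KLK3 against LNCaP alone: of the 37 tested targets, 16 fell further with CRPCCAFs, among them ADAM7 (-1.34) and SLC45A3 (-0.78), and 4 fell less or rose. Over all genes, 3.33% were more negative and 3.68% more positive than in LNCaP alone. Against CCAFs, 12 of these targets were more negative and 5 more positive with CRPCCAFs, beside 4.07% and 2.38% of all genes.

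PMEPA1, an activated target that also dampens TGF-beta signals, fell least with CRPCCAFs, from 46.7 and 49 to 31.2 and 32.6 RPKM, while its log2 change was -1.67 in LNCaP alone and -1.92 with CCAFs. The differences were 1.10 and 1.35. ALDH1A3, an enzyme that makes retinoic acid and a listed target, changed direction. It rose from 53.2 and 52.6 to 75.8 and 78.8 RPKM with CRPCCAFs, fell from 29.4 and 29.9 to 11.6 and 11.5 RPKM in LNCaP alone and fell from 35.7 and 32.7 to 20.9 and 21.1 RPKM with CCAFs. The differences were 1.83 (adjusted p = 1.1e-06) and 1.22 (adjusted p = 1e-05).

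Enzymes of steroid metabolism gave a mixed picture, with 10 of 22 tested genes higher and 5 lower, beside 30.5% and 24.7% of all genes. SRD5A3, a member of the steroid 5-alpha-reductase family that is also needed to make dolichol, rose from 18.5 and 18.5 to 43.2 and 41.5 RPKM with CRPCCAFs. It changed by -0.06 in LNCaP alone and by -0.09 with CCAFs, and both differences passed the test (1.22, adjusted p = 2.3e-05, and 1.24, adjusted p = 1.4e-05). The aldo-keto reductases AKR1C1, AKR1C2 and AKR1C3, which interconvert active and weak steroids, rose too. AKR1C3, which makes testosterone from androstenedione, went from 2.79 and 2.88 to 9.18 and 9.51 RPKM, and AKR1C1 from 2.16 and 2.38 to 10.6 and 11.7 RPKM. In the other 8 libraries, AKR1C1 lay between 0.314 and 1.01 RPKM. The 3 genes are close copies of each other, so the split of reads among them is uncertain. With a pseudocount of 0.1 the difference of AKR1C1 from CCAFs did not pass (adjusted p = 0.0822). CYP11A1, which makes pregnenolone from cholesterol, fell from 3.03 and 3.75 to 0.184 and 0.293 RPKM.

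Genes of DNA replication and mitosis fell without exception. All 44 tested replication and nucleotide genes fell, with a median log2 change of -1.68, and all 39 mitotic genes fell, each by more than 1, with a median of -2.31. Over all genes tested, 24.7% fell, and 3.78% fell by 1 or more. RRM2, the small subunit of ribonucleotide reductase, fell from 56.5 and 54.9 to 3.61 and 4.18 RPKM. CDC45, part of the replicative helicase, went from 14.4 and 15.1 to 0.971 and 1.2 RPKM, and E2F1, the factor that drives entry into S phase, from 19.5 and 20.9 to 2.9 and 3.22 RPKM. ORC6 and TYMS, thymidylate synthase, changed by -2.60 and -2.40. By the group means, E2F1 was 6.61-fold and RRM2 14.3-fold lower with enzalutamide.

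Among mitotic genes, MKI67 fell from 14.5 and 12.8 to 1.34 and 1.41 RPKM and CDK1, the mitotic kinase, from 52.3 and 49.7 to 7.38 and 7.65 RPKM. MYBL2, a factor that works with FOXM1 at late cell cycle genes, changed by -2.95, and AURKB, the kinase of the chromosome passenger complex, by -2.87. E2F letters stood in 22 of 38 promoters of the replication genes (57.9%), in 16.9% of the 414 promoters known for genes that were lower by 1 or more and in 10.8% of tested genes with a promoter. CHR letters stood in 22 of 32 promoters of the mitotic genes (68.8%), in 26.1% of the same lower genes and in 9.43% of tested genes with a promoter.

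Beside CRPCCAFs the medians of both lists were close to those of LNCaP alone and lower than those with CCAFs. The replication genes had medians of -1.68 with CRPCCAFs, -1.73 in LNCaP alone and -0.96 with CCAFs, and the mitotic genes -2.31, -2.21 and -1.12. Against CCAFs, 36 of 44 replication genes and 39 of 39 mitotic genes differed by the test, all more negative with CRPCCAFs, beside 4.07% of all genes. Against LNCaP alone, 2 replication genes were more positive and 1 more negative, and 1 mitotic gene was more positive and 2 more negative. Over all genes these shares were 3.68% and 3.33%. RRM2 kept 25.1 and 23.4 RPKM with enzalutamide and CCAFs, from 72.2 and 72.6 RPKM. The difference between its changes was -2.0 against CCAFs (adjusted p = 6.9e-06) and -0.23 against LNCaP alone (SE 0.0905, adjusted p = 0.17). MYBL2 (-1.80) and ASF1B (-1.78), a histone chaperone, also ranked among the largest differences from CCAFs.

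**Figure D2:**
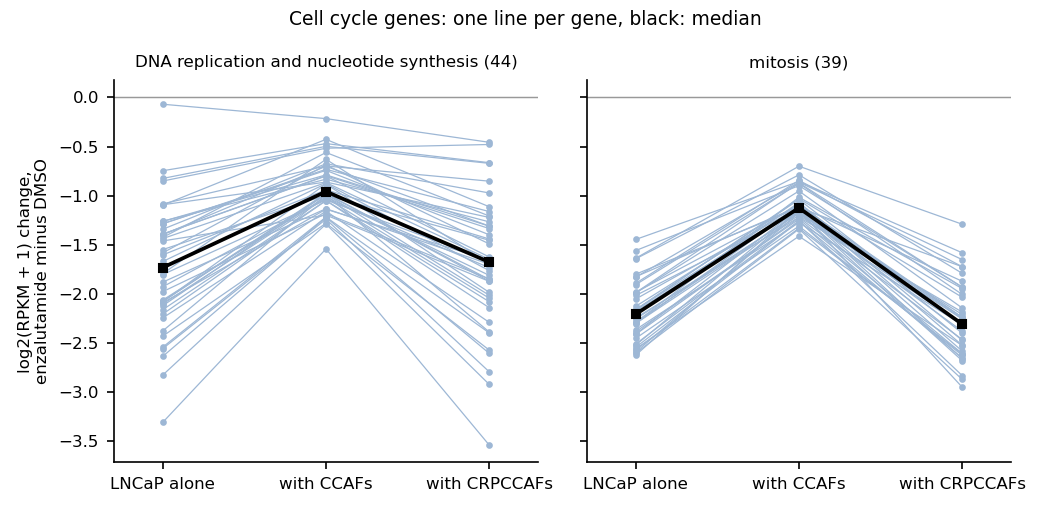
Change of log2(RPKM + 1) from DMSO to enzalutamide for 44 replication genes (left) and 39 mitotic genes (right) in LNCaP alone, with CCAFs and with CRPCCAFs; each blue line is 1 gene and the black line is the median. The medians are -1.73, -0.96 and -1.68 at the left and -2.21, -1.12 and -2.31 at the right.

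Regulators of the G1 phase changed in both directions, with 6 of 19 tested genes higher and 9 lower, beside 30.5% and 24.7% of all genes. CDKN1B, the CDK inhibitor p27, rose from 54.2 and 53.2 to 92 and 95.6 RPKM, while it changed by 0.23 in LNCaP alone and by 0.17 with CCAFs. Both differences passed the test (0.56, adjusted p = 0.0015, and 0.63, adjusted p = 0.00066). CDKN1A, the inhibitor p21, went from 152 and 151 to 189 and 190 RPKM with CRPCCAFs, and its changes were -0.17 in LNCaP alone and -0.53 with CCAFs. RBL2, a pocket protein found in resting cells, rose by 0.86. CDKN2C (-1.55) and CDK2 (-1.22) fell, and CCND1, cyclin D1, had 122 and 121 against 117 and 117 RPKM.

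MYC fell more than any other member of its list. Its level went from 82.4 and 84 RPKM to 8.93 and 9.34 RPKM, and the differences from LNCaP alone (-0.74, adjusted p = 0.0001) and from CCAFs (-1.41, adjusted p = 6.9e-06) both passed the test. Of 30 tested genes of MYC and ribosome biogenesis, 25 fell and 3 rose, beside 24.7% and 30.5% of all genes, with a median of -0.83. FBL, the methyltransferase of ribosomal RNA, fell from 126 and 134 to 47.6 and 51.3 RPKM, and NPM1, nucleophosmin, from 587 and 574 to 281 and 291 RPKM. The 3 that rose were MXD4 (0.41) and MXD1 (0.31), partners of MAX that oppose MYC, and UBTF (0.39). MXD1 lost its call when either DMSO library or enzalutamide library 1 was left out (0.26 to 0.32). Of 82 tested cytosolic ribosomal protein genes, 77 fell and none rose, beside 24.7% and 30.5% of all genes, with a median of -0.50. Of the 82, 43 were more negative than with CCAFs, beside 4.07% of all genes.

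**Figure D3:**
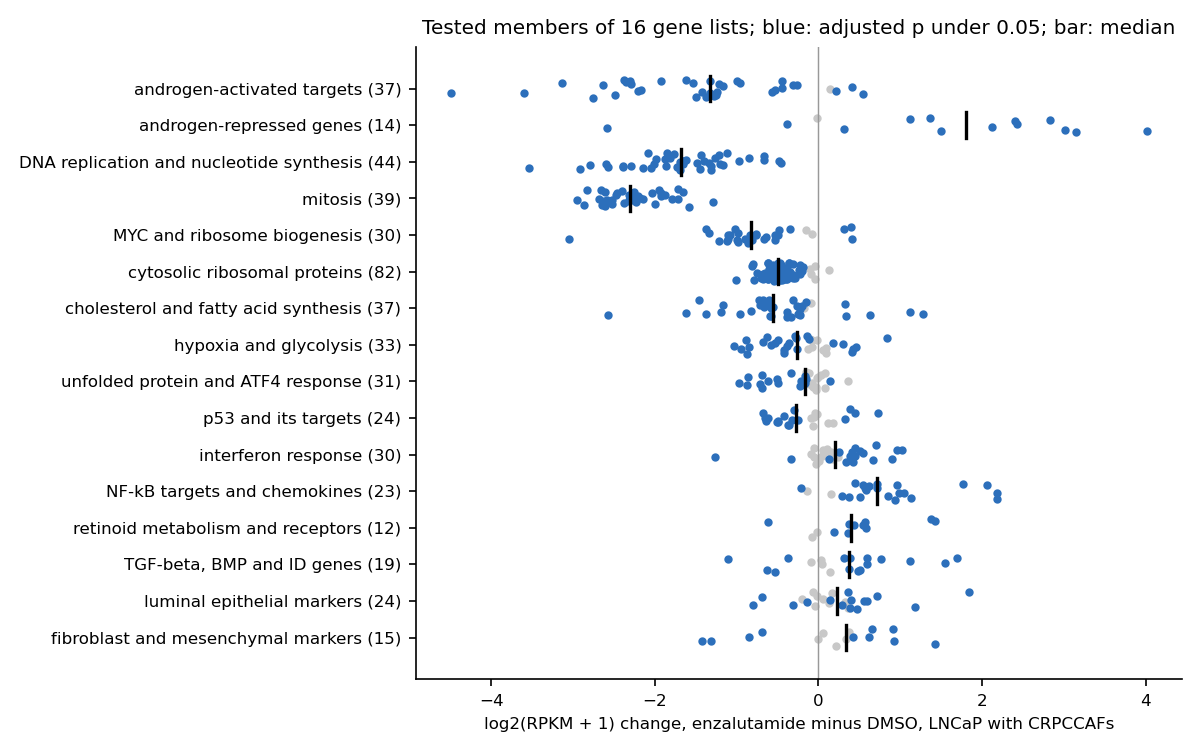
Change of log2(RPKM + 1) from DMSO to enzalutamide with CRPCCAFs for the tested genes of 16 lists; each point is 1 gene, blue where the adjusted p is under 0.05 and grey otherwise, and the black bar is the median. The median stands at 0.71 for the NF-kB list, -1.32 for the androgen-activated targets and -2.31 for mitosis.

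Enzymes of lipid synthesis mostly fell. Of 37 tested genes of cholesterol and fatty acid synthesis, 30 fell and 5 rose, beside 24.7% and 30.5% of all genes. Their medians were -0.56 with CRPCCAFs, -0.26 in LNCaP alone and -0.35 with CCAFs. By the test of differences, 13 were more negative than in LNCaP alone and 3 more positive, beside 3.33% and 3.68% of all genes. FASN, fatty acid synthase, fell from 192 and 199 to 88.7 and 84.8 RPKM, and ELOVL7, a fatty acid elongase, from 27.2 and 26.4 to 3.69 and 3.65 RPKM. TM7SF2, a sterol reductase, rose from 105 and 111 to 265 and 263 RPKM, and ABCG1, a cholesterol exporter, from 3 and 2.9 to 7.6 and 7.52 RPKM. Of 11 polyamine enzymes, 4 rose and 3 fell, beside 30.5% and 24.7% of all genes, with a median of 0.06. ODC1, the first enzyme of polyamine synthesis, fell from 263 and 260 to 104 and 108 RPKM, and its change differed from that in LNCaP alone by -0.76 and from that with CCAFs by -0.45. AOC1, a diamine oxidase that breaks down putrescine, had the largest rise of any gene the test called, from 0.554 and 0.476 to 25.7 and 25.7 RPKM.

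Hypoxia and glycolysis genes fell in 19 and rose in 6 of 33 cases, beside 24.7% and 30.5% of all genes. PDK1, which closes pyruvate dehydrogenase, fell from 38.9 and 34.8 to 17.4 and 17.4 RPKM and HK2, hexokinase, from 26.9 and 25.8 to 13 and 13.4 RPKM. The median, -0.27, was nearer 0 than in LNCaP alone (-0.53) and with CCAFs (-0.44). The changes of 14 members were more positive than in LNCaP alone and 4 more negative, beside 3.68% and 3.33% of all genes. VEGFA, the vascular growth factor, rose by 0.30 with CRPCCAFs and changed by -0.36 and -0.73 in the other settings.

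Targets of NF-kB, the factor behind much inflammatory gene expression, rose with enzalutamide beside CRPCCAFs, and many of them rose there by more than in the other settings. Of 35 listed NF-kB targets and chemokines, 23 were tested. Of these, 20 rose and 1, NFKB2 (-0.22), fell, beside 30.5% and 24.7% of all genes. The call of NFKB2 was lost when DMSO library 2 (-0.15) or enzalutamide library 2 (-0.17) was left out. The median was 0.71 with CRPCCAFs, -0.00031 in LNCaP alone and 0.09 with CCAFs. By the test of differences, 13 of the 23 were more positive than in LNCaP alone, beside 3.68% of all genes, and 11 more positive than with CCAFs, beside 2.38%. No member was more negative in either test. Of the members named below, CCL20, CXCL8, IL1B and TNFAIP3 lost the difference from LNCaP alone with a pseudocount of 0.1. CCL20, CXCL8, IL1B and NFKBIZ then lost the difference from CCAFs. The call of TNFAIP3 against LNCaP alone was also lost when any 1 of the 4 libraries of LNCaP alone was left out. The same held without either DMSO library or enzalutamide library 2 with CRPCCAFs. Its difference was then 0.875 to 1.04 times that of the full fit. The list was chosen with earlier results of these data known.

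The promoters of NFKBIZ (chr3:101827740-101827989, plus strand), which encodes the nuclear co-regulator IkB-zeta, and of TNFAIP3 (chr6:137867009-137867258, plus strand), which encodes the feedback inhibitor A20, show in capitals an NF-kB motif, GGG and TTTCC with 2 free bases between them, in TNFAIP3 at 2 places on the opposite strand. It was found on either strand in 7 of 17 promoters of the tested NF-kB genes (41.2%), in 2.86% of promoters of genes that were higher by 1 or more and in 2.07% of tested genes with a promoter.
NFKBIZ: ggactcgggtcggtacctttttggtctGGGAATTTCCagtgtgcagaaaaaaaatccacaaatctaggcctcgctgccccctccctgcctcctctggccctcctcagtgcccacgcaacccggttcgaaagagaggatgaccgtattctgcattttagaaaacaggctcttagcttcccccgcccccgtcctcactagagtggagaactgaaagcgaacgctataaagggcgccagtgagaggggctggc
TNFAIP3: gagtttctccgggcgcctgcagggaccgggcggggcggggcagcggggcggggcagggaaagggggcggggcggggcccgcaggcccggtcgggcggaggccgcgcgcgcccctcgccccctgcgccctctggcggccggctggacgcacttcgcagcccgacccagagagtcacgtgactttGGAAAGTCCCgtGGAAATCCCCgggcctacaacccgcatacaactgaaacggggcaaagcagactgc

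LCN2, lipocalin 2, a siderophore-binding secreted protein, went from 3.92 and 4.91 to 23.8 and 23.2 RPKM with CRPCCAFs. In the 8 libraries without CRPCCAFs it lay between 0.319 and 0.869 RPKM. The difference between its changes was 2.08 against LNCaP alone (SE 0.214, adjusted p = 0.00052) and 2.52 against CCAFs (adjusted p = 0.00014). NFKBIZ rose from 5.45 and 6.05 to 27.6 and 26.7 RPKM with CRPCCAFs, and with CCAFs from 1.51 and 1.35 to 4.66 and 4.79 RPKM. LNCaP alone had 0.735 and 0.572 against 0.628 and 0.932 RPKM. So NFKBIZ rose in both cocultures, and its difference between them, 0.83 (adjusted p = 0.0065), did not pass with a pseudocount of 0.1 (adjusted p = 0.223).

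Cytokine genes stood much lower. IL1B, interleukin 1 beta, went from 0.295 and 0.252 to 4.85 and 4.69 RPKM with CRPCCAFs and reached at most 0.966 RPKM in the other 8 libraries. CCL20, a chemokine for CCR6 cells, went from 0.525 and 1.28 to 4.58 and 6.17 RPKM, and CXCL8, interleukin 8, from 1.81 and 1.61 to 5.12 and 4.8 RPKM. The other 8 libraries had up to 0.588 RPKM of CCL20 and up to 0.212 RPKM of CXCL8. At a pseudocount of 0.1 no difference of IL1B, CCL20 or CXCL8 passed the test, for IL1B with adjusted p = 0.117 against LNCaP alone and 0.092 against CCAFs. IER3, an early response gene, rose from 4.68 and 6.3 to 12.3 and 12.3 RPKM, and BIRC3, an inhibitor of apoptosis, from 4.48 and 3.83 to 9.16 and 8.78 RPKM. TNFAIP2 (0.93), RELB (0.86), TNFAIP3 (0.71) and NFKB1 (0.71) rose as well.

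Markers of other cells changed in both directions. Of 15 tested fibroblast and mesenchymal markers, 6 rose and 4 fell, beside 30.5% and 24.7% of all genes. Of 2 tested leukocyte and endothelial markers, 1 rose and 1 fell. Of 37 fibroblast and mesenchymal markers, 21 were under 0.5 RPKM in all 4 libraries, and their summed level was 220.9 to 231.3 RPKM with DMSO and 299.8 to 309.4 RPKM with enzalutamide. Most of the sum was FN1, fibronectin, at 142 and 129 against 187 and 179 RPKM. In LNCaP alone the sum was 100.2 to 106.8 RPKM with DMSO and 156.6 to 158.8 RPKM with enzalutamide. With CCAFs it was 143 to 148.6 RPKM with DMSO and 151.2 to 151.4 RPKM with enzalutamide. The part of fibroblast RNA in these sums was not tested. Of 12 leukocyte and endothelial markers, 10 were under 0.5 RPKM in all 4 libraries, and the summed level, 10.24 to 11.77 against 23.47 to 24.32 RPKM, was mostly CD68, a lysosomal protein of macrophages and other cells. CD68 went from 8.57 and 9.81 to 22.3 and 21.5 RPKM. The part of other cells in the rise of the NF-kB genes was not tested, and how reads of human and mouse cells were told apart is not stated by the labels or notes used here.

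**Figure D4:**
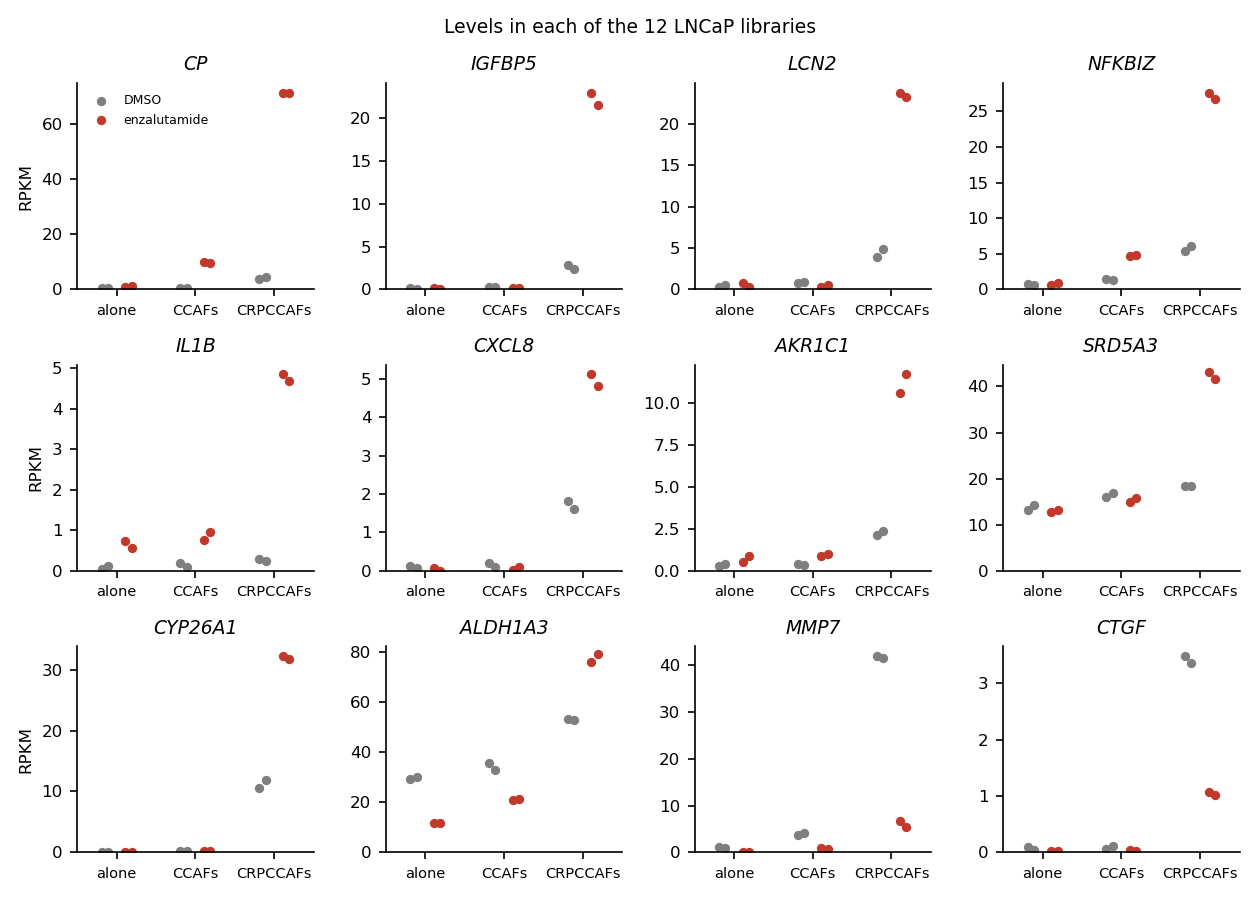
RPKM (linear axis from 0, a scale for each gene) in all 12 LNCaP libraries, 1 point per library, for 12 genes whose enzalutamide change with CRPCCAFs was compared with the other settings; grey is DMSO and red enzalutamide. IGFBP5 reaches 22.9 and 21.5 RPKM in the enzalutamide libraries with CRPCCAFs and at most 0.311 RPKM in the 8 libraries without them, and ALDH1A3 rises there while it falls in the other settings.

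The insulin-like growth factor axis held one of the largest differences. IGFBP5, a secreted binding protein for these factors, had 2.84 and 2.38 RPKM with DMSO and 22.9 and 21.5 RPKM with enzalutamide beside CRPCCAFs. In the 8 other libraries it lay between 0.0218 and 0.311 RPKM. Its change differed by 2.60 from that in LNCaP alone (SE 0.158, adjusted p = 2.9e-05) and by 2.82 from that with CCAFs (adjusted p = 1.4e-05). IGFBP3, a related binding protein, rose in every setting, from 40.9 and 40 to 206 and 209 RPKM with CRPCCAFs and from 7.03 and 7.87 to 155 and 159 RPKM in LNCaP alone, where the rise was larger (difference -1.89). GRB10, an adaptor that restrains the receptors, rose from 15.1 and 14.3 to 85 and 87 RPKM. IGF1R, the receptor, fell from 5.8 and 5 to 1.33 and 1.21 RPKM, and the substrates IRS1 (-0.81) and IRS2 (-0.93) fell as well.

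CP, ceruloplasmin, the copper-carrying ferroxidase of plasma, rose from 3.83 and 4.38 to 71.5 and 71.5 RPKM with CRPCCAFs. It went from 0.612 and 0.631 to 10.1 and 9.68 RPKM with CCAFs and from 0.568 and 0.554 to 0.902 and 1.08 RPKM in LNCaP alone. The change thus differed from LNCaP alone by 3.48 (SE 0.102, adjusted p = 6e-07) and from CCAFs by 1.08 (adjusted p = 0.00025). At a pseudocount of 0.1 the second difference did not pass (adjusted p = 0.295). SDCBP2, syntenin 2, rose from 6.06 and 7.59 to 43.1 and 41.3 RPKM, and its difference of 2.40 from LNCaP alone was close to the 2.3 of FKBP1A-SDCBP2, a readthrough gene that shares its exons. The difference of SDCBP2 from CCAFs, 1.46, did not pass with a pseudocount of 0.1 (adjusted p = 0.139).

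Retinoid genes rose in 9 of 12 cases and fell in 1, beside 30.5% and 24.7% of all genes. CYP26A1, which breaks down retinoic acid and is itself induced by it, had 10.6 and 11.9 RPKM with DMSO and 32.3 and 31.7 RPKM with enzalutamide beside CRPCCAFs, and at most 0.239 RPKM in the other 8 libraries. At that level its difference from CCAFs, 1.42 (adjusted p = 0.00016), did not pass with a pseudocount of 0.1 (adjusted p = 0.0524). DHRS3, a retinaldehyde reductase, rose from 48.8 and 51 to 76.3 and 74.2 RPKM, while it changed by -0.08 in LNCaP alone and by -0.13 with CCAFs. ALDH1A3, described above, belongs to the same pathway. RARB, a retinoic acid receptor, fell by 0.62.

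Genes of the TGF-beta and BMP pathways rose in 11 and fell in 4 of 19 cases, beside 30.5% and 24.7% of all genes. Their medians were 0.38 with CRPCCAFs and 0.52 in LNCaP alone. Against LNCaP alone, 9 of the 19 were more negative with CRPCCAFs and 2 more positive, beside 3.33% and 3.68% of all genes. SMAD3, one of the 2, which carries the TGF-beta signal, rose from 5.86 and 5.75 to 18.9 and 18.9 RPKM, by 1.03 more than in LNCaP alone (adjusted p = 0.00049) and 1.01 more than with CCAFs (adjusted p = 0.00039). ID1, a BMP target, rose from 26.6 and 30.3 to 93.5 and 95.1 RPKM, by less than in LNCaP alone (difference -0.74, adjusted p = 0.0017). CTGF and CYR61, matrix proteins induced by TGF-beta and YAP, went the other way from SMAD3. CYR61 fell from 23.1 and 25.6 to 15.8 and 15.1 RPKM and CTGF from 3.49 and 3.36 to 1.07 and 1.02 RPKM. CTGF was at 0.112 RPKM or less in the other 8 libraries, and its differences did not pass with a pseudocount of 0.1. GDF15, a stress-induced member of the family, fell by 0.37 with CRPCCAFs and by 1.69 and 1.43 in LNCaP alone and with CCAFs.

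Receptor tyrosine kinases and their ligands were mixed, with 5 of 12 tested genes higher and 3 lower, beside 30.5% and 24.7% of all genes. Their median was 0.04. FGFR1, a fibroblast growth factor receptor, rose from 2.58 and 2.39 to 5.82 and 6.25 RPKM, and its changes in LNCaP alone and with CCAFs were 0.01 and 0.26. ERBB2 rose by 0.72 and EGFR fell by 0.48. Of 5 tested genes for osteopontin and its receptors, 4 integrin genes rose and none fell. ITGAV, the alpha-v subunit, went from 28.1 and 25.3 to 41.4 and 42.3 RPKM and changed by -0.02 in LNCaP alone and by -0.05 with CCAFs. SPRY4, a feedback inhibitor of receptor signals, rose by 1.59, which was less than in LNCaP alone (2.58), and EGR1 rose from 10.5 and 10.8 to 22.1 and 22.1 RPKM.

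Wnt pathway genes rose in 8 and fell in 2 of 16 cases, beside 30.5% and 24.7% of all genes. MMP7, matrilysin, a protease and Wnt target, fell from 42 and 41.6 to 6.71 and 5.47 RPKM. In LNCaP alone it was at 1.06 and 1.01 RPKM with DMSO and listed at 0 in both libraries with enzalutamide, so the sign of its difference there depends on the scale: -1.58 as tested and 0.74 with a pseudocount of 0.1. AXIN2, the usual readout of the pathway, rose from 2.09 and 2.11 to 2.98 and 2.79 RPKM, a call that was lost when any 1 of the 4 libraries was left out (0.29 to 0.36) and with another scaling (0.28). C8orf4, a regulator of Wnt signals, rose by 1.18 with CRPCCAFs and by 1.25 with CCAFs, and changed by 0.03 in LNCaP alone.

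Luminal markers were high, with 11 of 24 higher and 4 lower, beside 30.5% and 24.7% of all genes. OCLN, a tight junction protein, rose from 8.35 and 7.37 to 31.3 and 30.1 RPKM, and ELF3, an epithelial ETS factor, from 29.4 and 31.7 to 69.2 and 71.7 RPKM. FOLH1, prostate-specific membrane antigen, rose from 418 and 397 to 675 and 665 RPKM. Of 12 basal markers, 6 were tested, and LAMB3 (1.35), KRT15 (1.18), ITGB4 (0.92) and DST (0.38) rose while KRT14 (-1.07) and ITGA6 (-0.31) fell. DST lost its call without DMSO library 2 (0.31) or either enzalutamide library (0.36 and 0.39). KRT20, a keratin of bladder and gut epithelium, rose from 0.306 and 0.299 to 3.69 and 2.9 RPKM and stayed at 0.291 RPKM or less in the other 8 libraries. Of 20 neuroendocrine markers, 4 were tested. DLL3, a Notch ligand, fell by 0.46, with no call when DMSO library 2 (-0.29) or enzalutamide library 1 (-0.34) was left out, and SYP, ONECUT2 and UCHL1 did not pass the test, with changes of 0.13, 0.22 and -0.05.

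The remaining genes picked by size were mixed in kind. MYRIP, a linker of vesicles to myosin, rose from 3.32 and 3.07 to 32.8 and 32.5 RPKM, LRRN1, a leucine-rich repeat membrane protein, from 6.21 and 5.73 to 49.7 and 47.6 RPKM and IRX3, a homeobox factor, from 5.79 and 6.03 to 46.2 and 48.2 RPKM. MAN1A1, a mannosidase of the Golgi, rose from 1.18 and 0.89 to 10.2 and 11 RPKM, and by 2.06 more than in LNCaP alone. IFI27L2 reached 23.5 and 28 RPKM from 3.31 and 4.27 RPKM. PGC, the pepsinogen of stomach and seminal fluid, fell from 7.86 and 9.39 to 0.0925 and 0.197 RPKM and LINC01297, a long noncoding RNA, from 7.82 and 8.2 to 0.196 and 0.267 RPKM. No gene went from under 0.5 RPKM in both DMSO libraries to 5 or more in both enzalutamide libraries. FAM111B, a replication-linked protease, changed by -3.0. VSTM2L, a secreted immunoglobulin-domain protein, fell from 10.8 and 11.2 to 4.44 and 5.38 RPKM while it rose by 1.25 in LNCaP alone. PHGR1 fell from 6.97 and 7.42 to 0 and 0.817 RPKM. Its difference from LNCaP alone, -1.79 (adjusted p = 0.014), lost its call with a pseudocount of 0.1 (-2.55) and without DMSO library 2 (-1.64) or enzalutamide library 1 (-1.65) of LNCaP alone. AKAP12, a scaffold for protein kinase A, fell from 23.1 and 21.7 to 13.5 and 13.7 RPKM, and by less than with CCAFs (difference 2.04, adjusted p = 1e-05). HMOX1, heme oxygenase, rose from 79.2 and 82.3 to 124 and 126 RPKM and fell from 23.7 and 21.3 to 5.69 and 6.97 RPKM with CCAFs (difference 2.31, adjusted p = 1e-05).

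**Figure D5:**
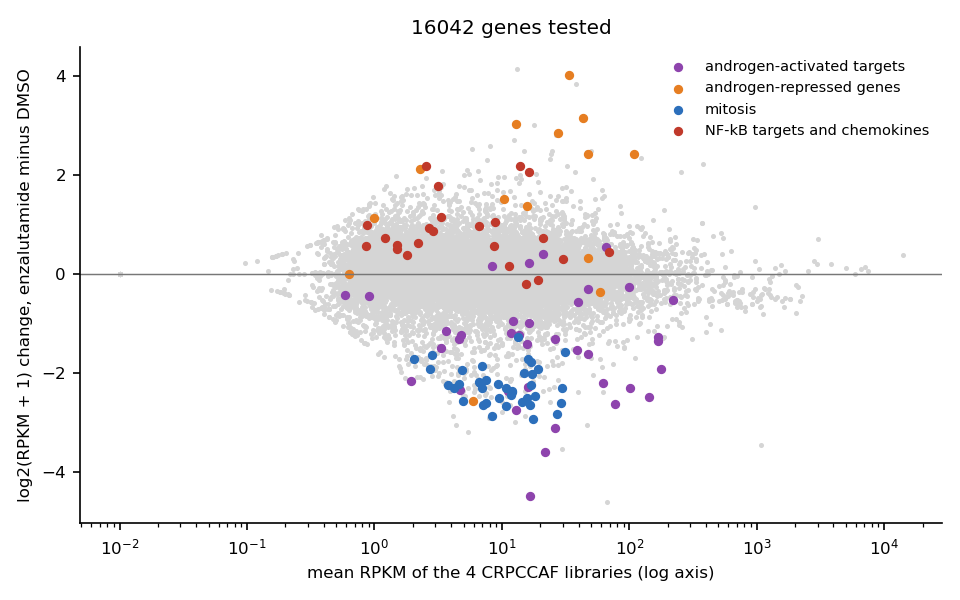
Change of log2(RPKM + 1) from DMSO to enzalutamide with CRPCCAFs against the mean RPKM of the 4 libraries (log axis), 1 point for each of 16042 genes; 4 lists are coloured. Mitotic genes (blue) all lie below -1, androgen-activated targets (purple) reach -4.49 at ADAM7, and NF-kB genes (red) lie mostly above 0 at low to middle levels.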

How the data were processed

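Total RNA of LNCaP cells was taken with Trizol, made into libraries with a NEBNext Ultra kit and sequenced on a HiSeq instrument, per the labels' protocols, after growth in RPMI medium with FBS. The deposited table gives RPKM per gene symbol, per the file headers. Tools and builds in the submitters' processing notes are HISAT2, HTSeq, DESeq2, hg19 and mm10, without roles or versions. Use of strand in counting is not given in the sources used, so overlapping genes may share reads.

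Genes at 1 RPKM or more in at least 2 of 12 libraries were fitted with limma 3.58.1 (R 4.3.3) on log2(RPKM + 1), with a mean-variance trend, 6 groups of 2 and 6 residual degrees of freedom. A pseudocount of 1 understates changes of low genes. Tests were two-sided and adjusted by Benjamini-Hochberg over all genes tested, with a threshold of 0.05. Reads per library were worked out from the smallest RPKM steps of 25005 genes, where 100% were whole within 0.05 reads, and serve to give depth, the reads behind low genes and the chi-square between replicates over genes with at least 20 reads in a pair, never a test. On simulated data with changes planted in this comparison, over 15914 genes, 44 of 67 genes at 1.5-fold, 62 of 67 at 2-fold and 66 of 66 at 4-fold were called, and 5 of 15714 unchanged genes. The simulation gave all groups the same spread and changed few genes, each with more than 20 reads on average. In the real data the pairs differed in spread and 55.2% of genes were called. These rates therefore need not hold for the real data, and they do not cover changes of low genes.

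Named genes are the 12 largest rises and falls with an adjusted p under 0.05, 1 RPKM or more in a group, groups apart and an official symbol, genes that crossed from under 0.5 to 5 RPKM or back, list members, and the 6 largest differences each way from the other settings. Genes of microRNAs and other short RNAs, clone names and genes not reported here were left out of the text. The members and the 36 lists were chosen with earlier results of these data known, and a list is described by counts and medians without a test. Promoters were matched to RefSeq (GRCh38.p14) by symbol for 10383 of 16042 genes. Alternatives were a pseudocount of 0.1, no filter, a replicate block, median-of-ratios scaling, the 4 CRPCCAF libraries only, and each library left out in turn.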

Additional observations from a re-analysis of the deposited data

Results flagged for a closer look

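The genes here are those named above whose enzalutamide change with CRPCCAFs differed by at least 1 on the log2 scale, in the same direction, from the change in LNCaP alone and from the change with CCAFs, each by the limma test of the difference. Values are the difference from LNCaP alone first and from CCAFs second, and both share the 4 CRPCCAF libraries.

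Among secreted proteins, IGFBP5 differed by 2.6 and 2.82, LCN2 by 2.08 and 2.52 and CP by 3.48 and 1.08. For SDCBP2 the differences were 2.4 and 1.46, and for the readthrough gene FKBP1A-SDCBP2 2.3 and 1.47. With a pseudocount of 0.1, the differences of CP and SDCBP2 from CCAFs lost their call.

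Among inflammatory genes, IL1B and CCL20 stood at 1.28 RPKM or less in the 10 libraries that lacked CRPCCAFs or enzalutamide. IL1B differed by 1.57 and 1.49, CCL20 by 1.77 and 1.55 and CXCL8 by 1.22 and 1.25. The difference of CCL20 from CCAFs was not called when enzalutamide library 2 with CRPCCAFs (1.37), either DMSO library with CCAFs (1.59 and 1.51) or enzalutamide library 2 with CCAFs (1.38) was left out. None of the differences of IL1B, CCL20 and CXCL8 was called with a pseudocount of 0.1.

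Enzymes of steroid and retinoid metabolism followed. SRD5A3 differed by 1.22 and 1.24, AKR1C1 by 1.56 and 1.4, CYP26A1 by 1.47 and 1.42 and ALDH1A3 by 1.83 and 1.22. The differences of AKR1C1 and CYP26A1 from CCAFs lost their call with a pseudocount of 0.1.

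Of the TGF-beta genes, SMAD3 differed by 1.03 and 1.01, PMEPA1 by 1.1 and 1.35, GDF15 by 1.32 and 1.06 and CTGF by -1.05 and -1.03, the last gene with no call at a pseudocount of 0.1. Among epithelial genes, KRT20 differed by 1.79 and 1.84, KRT15 by 1.18 and 1.05 and LAMB3, a laminin chain, by 1.51 and 1.05. KRT15 was not called against either setting when enzalutamide library 2 with CRPCCAFs was left out (1.10 and 0.97) or with a pseudocount of 0.1 (2.73 and 1.97). Its difference from CCAFs was also lost without either DMSO library (1.05 for both) or enzalutamide library 1 (0.95) with CCAFs. With a pseudocount of 0.1, the difference of LAMB3 from CCAFs was not called (1.00). VSTM2L, with -2.27 and -1.39, fell with CRPCCAFs and was more negative than in either setting. MMP7 differed by -1.58 and -1.23, but with a pseudocount of 0.1 the first became 0.74 and the second, -0.76, was not called. The causes of these differences were not tested.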

How the results depend on the processing

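The 8848 genes called with CRPCCAFs became 8720 with a pseudocount of 0.1, 8942 with no filter, 8668 with median-of-ratios scaling (4175 higher and 4493 lower), 8764 with the replicate block and 7373 with the 4 CRPCCAF libraries only, and 7314 to 7970 when 1 library was left out, where the spread of a lone library was taken from the other groups. Differences from LNCaP alone, 1125 in all, were 580 to 1121 with 1 library left out and 929 to 1125 otherwise. Those from CCAFs, 1034 in all, were 580 to 1367 and 866 to 1030. Of 152 named genes called with CRPCCAFs, 146 kept call and direction in every alternative, as did 51 of 79 named differences from LNCaP alone and 58 of 77 from CCAFs. With a pseudocount of 0.1, the difference from LNCaP alone reversed for CYP11A1 (0.0021, adjusted p = 0.998) and MMP7 (0.74, adjusted p = 0.0625), and 15 named differences from LNCaP alone and 14 from CCAFs lost their call. The cause was not tested. With median-of-ratios scaling, 34 respiratory chain genes fell in place of 20, 2 NF-kB and 2 retinoid genes fell in place of 1 each, and no gene of the unfolded protein and ATF4 responses rose in place of 1. With no filter, no NF-kB gene fell, no gene of the unfolded protein and ATF4 responses rose, and 2 neuroendocrine markers rose and 2 fell in place of 0 and 1. Same-numbered libraries of different groups did not visibly deviate together (correlations of -0.0617 to 0.084 across genes, which are not independent replicates). These values cannot tell whether same-numbered libraries were handled together. With the replicate block, 981 genes differed from LNCaP alone and 992 from CCAFs. Depth limits low genes most: IL1B rests on 8 and 7 reads with DMSO and CCL20 on 8 and 20.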

Other observations

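Genes of cell death and stress also changed with enzalutamide beside CRPCCAFs. Of 17 tested apoptosis regulators, 12 rose and 2 fell, beside 30.5% and 24.7% of all genes. BMF, a BH3-only protein that promotes death, went from 16.2 and 16.6 to 47.5 and 47.1 RPKM, and MCL1, which opposes it, from 76 and 68.4 to 129 and 129 RPKM. PMAIP1, the BH3-only protein NOXA, fell from 9.99 and 9.52 to 3.9 and 4.63 RPKM. Of 24 p53 genes, 4 rose and 13 fell, beside the same 30.5% and 24.7%. Among those that fell were AEN (-0.68), a nuclease, and DDB2 (-0.62), a DNA damage sensor, while TP53INP1 rose by 0.73. Of 31 genes of the unfolded protein and ATF4 responses, 17 fell and 1 rose, beside 24.7% and 30.5% of all genes. MANF, a factor of the endoplasmic reticulum, fell from 74.4 and 81.7 to 40.4 and 38.1 RPKM, PSAT1, a serine synthesis enzyme, by 0.86 and the chaperone HSP90B1 by 0.61.

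Of 30 tested interferon genes, 15 rose and 2 fell, beside 30.5% and 24.7% of all genes. IFI35 rose from 9.02 and 9.14 to 19.1 and 18.2 RPKM and BST2, tetherin, from 1.46 and 1.8 to 4.61 and 4.09 RPKM, whereas OAS3, an antiviral synthetase, fell from 5.72 and 5.93 to 2.04 and 1.67 RPKM. CLU, the chaperone clusterin, rose from 29.7 and 32.8 to 90.1 and 93.2 RPKM. FTH1, the ferritin heavy chain, rose by 0.70, and TFRC, the transferrin receptor, fell by 0.51. Among long noncoding RNAs, MALAT1 rose from 246 and 248 to 489 and 514 RPKM, and GAS5 and SNHG1, host genes of small nucleolar RNAs, fell by 0.92 and 1.22. PCAT1 fell from 2.88 and 3.54 to 0.197 and 0.358 RPKM. Of 75 respiratory chain genes 20 fell and 5 rose, with a median of -0.08, beside 24.7% and 30.5% of all genes, and with median-of-ratios scaling 34 fell. Of 49 tested replication-linked histone genes 9 rose and 10 fell, beside 30.5% and 24.7% of all genes.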
